A study of Saccharomyces cerevisiae with 11 samples.

Results

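Family probe sets without one gene symbol are sets of short array probes that bind the transcripts of repeated, nearly identical genes of budding yeast, so that the array designers could not tie them to a single gene. They were selected among the 9335 probe sets of the Affymetrix YG-S98 array by an identifier that ends in _f_at, an entry in the platform gene table with no symbol or with several symbols, and a mean signal of 100 or more over the 11 arrays. This gave 262 members of 586 family probe sets. Another 130 family probe sets without one symbol had a mean signal under 100. Members were thus chosen by their mean signal, so a high level is no finding about them. The 3 members nearest above the limit were 3475_f_at (105.9), 3286_f_at (112.5) and 3301_f_at (118.7), and the 3 nearest below it were 3676_f_at (99.3), 3828_f_at (95.6) and 3329_f_at (87.1).

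The groups were fks1 cells given glucosamine for 2 h (1 array), untreated fks1 cells (1 array), wild-type cells grown with glucosamine overnight and again after dilution (3 arrays, called continuous here), wild-type cells given it for 2 h (3 arrays) and untreated wild-type cells (3 arrays). Glucosamine, an amino sugar from which cells can make the building block of chitin, was used at 15 mM. Wild type was BY4741, a MATa haploid used widely in the laboratory, with auxotrophic deletions of HIS3, LEU2, MET15 and URA3, and the mutant was an fks1 strain numbered 5251, whose allele and number of clones the labels do not give. FKS1 encodes the main catalytic subunit of the glucan synthase of the cell wall. All cultures grew in the rich glucose medium YPD to an optical density of 1.6 to 1.8. Whether the numbered replicates came from separate cultures is not stated, so the p-values measure a spread between arrays that may be technical.

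FKS1 read 6.6 after 2 h of glucosamine and 24.4 untreated on the fks1 arrays, against 6591 to 8257 on the 9 wild-type arrays, so the strain labels hold for the targeted gene. The arrays had been scaled to nearly the same mean, with 2% trimmed means of 500.4 to 500.5, so any difference in the total amount of RNA in a cell is removed. Against a background level of 25.5, exceeded by 5% of the values of 19 control probe sets for transcripts that yeast lacks, 260 of the 262 members lay higher on every array. The first probe set for 25S ribosomal RNA ran between 20.4 on untreated wild-type array 2 and 11615 on 2 h wild-type array 3, so these arrays differed widely in a transcript that is no member.

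Of the 93 members whose entry lists genes, 67 list genes of Ty elements, the retrotransposons of budding yeast. A Ty element is copied from its own full-length RNA by a reverse transcriptase and re-enters the genome, and its 2 genes encode the coat protein (Gag) and the enzymes that process, copy and insert it (Pol). Ty1 is the most abundant family, its RNA is among the most plentiful polymerase II transcripts of haploid cells, and Ty2 is a close relative that shares long stretches of sequence with it. Ty4 and Ty3 are rarer families with much less RNA. Other members bind subtelomeric or duplicated gene families. On an array such a probe set sums over the copies it can bind, so it cannot tell which element changed, nor a few copies from all.

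Of the members, 93 listed several symbols and 169 listed none. From the symbols, 28 of the 93 listed genes of both Ty1 and Ty2, 23 listed Ty1 genes alone and 2 listed Ty2 genes alone. Ty4 made up 14 members, the seripauperins (PAU genes, small cell wall mannoproteins known for their induction without oxygen) 10, ribosomal proteins 7, the COS family (subtelomeric membrane proteins that help sort cargo to the vacuole) 5, and the Y' subtelomeric elements, which encode helicase-like proteins, 3. The last member, 3302_f_at, fell in none of these. Entries named between 2 and 20 genes each. The 93 entries held only 46 distinct lists, and 14 members shared 1 list, so members are not independent measurements of separate genes.

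The 10 members with the highest mean signal were 5 ribosomal protein probe sets, 1 for Ty1 and Ty2 and 4 without a symbol. At the top stood 10047_f_at (10099), 7708_f_at (9676), 8384_f_at (8633) and 7618_f_at (8261), which bind ribosomal protein paralogs. The next were 3529_f_at without a symbol (7667), 3393_f_at for Ty1 and Ty2 (7600.5), 3772_f_at (6962), 3637_f_at (6630.4), the ribosomal protein probe set 4909_f_at (6627) and 3788_f_at (6529). None of these 10 passed the test in a wild-type comparison. The median mean signal was 2802 for the 53 Ty1 and Ty2 members, 1293 for members without a symbol, 265 for the seripauperins and 144 for Ty4. These are signals of different probes, so they give no order of RNA amounts between families.

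In wild-type cells grown in continuous glucosamine, the Ty1 and Ty2 members and most members without a symbol read higher than in untreated cells. Over all members the median log2 difference was 0.66, against 0.02 over the 8616 probe sets tested, and 236 of 262 members had a positive difference. With limma's moderated test and Benjamini-Hochberg adjustment over the 8616 probe sets, 67 members rose and 2 fell at an adjusted p under 0.05. The background was 1.44% of probe sets called in either direction, 1.06% higher and 0.383% lower, the members included. The rises were modest, with folds of 1.47 to 3.15, a median of 1.85-fold and adjusted p-values of 0.026 to 0.0496. The number of calls was not stable when a single array was left out. It dropped to 0 members without untreated array 2, untreated array 3 or continuous array 1, to 3 without continuous array 2 and to 8 without untreated array 1. Calls over all tested probe sets dropped as well, from 124 to 2, 6, 12, 26 and 13 in the same order. The median over the members moved less, between 0.56 and 0.72 whichever of the 9 wild-type arrays was left out.

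The 67 that rose were 51 members without a symbol, 11 for Ty1 and Ty2 together, 3 for Ty1 and both members for Ty2. Both members that fell had no symbol. Before any test, the arrays themselves separated: for 191 members all 3 continuous arrays read above all 3 untreated arrays, for 8 they all read below, and for 63 the groups overlapped. The background for such a separation was 10.6% of tested probe sets higher and 9.61% lower. Among the 190 tested family probe sets that do have 1 symbol, 5 rose, and among the 8078 tested probe sets outside the families 16 rose and 31 fell.

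**Figure D1:**
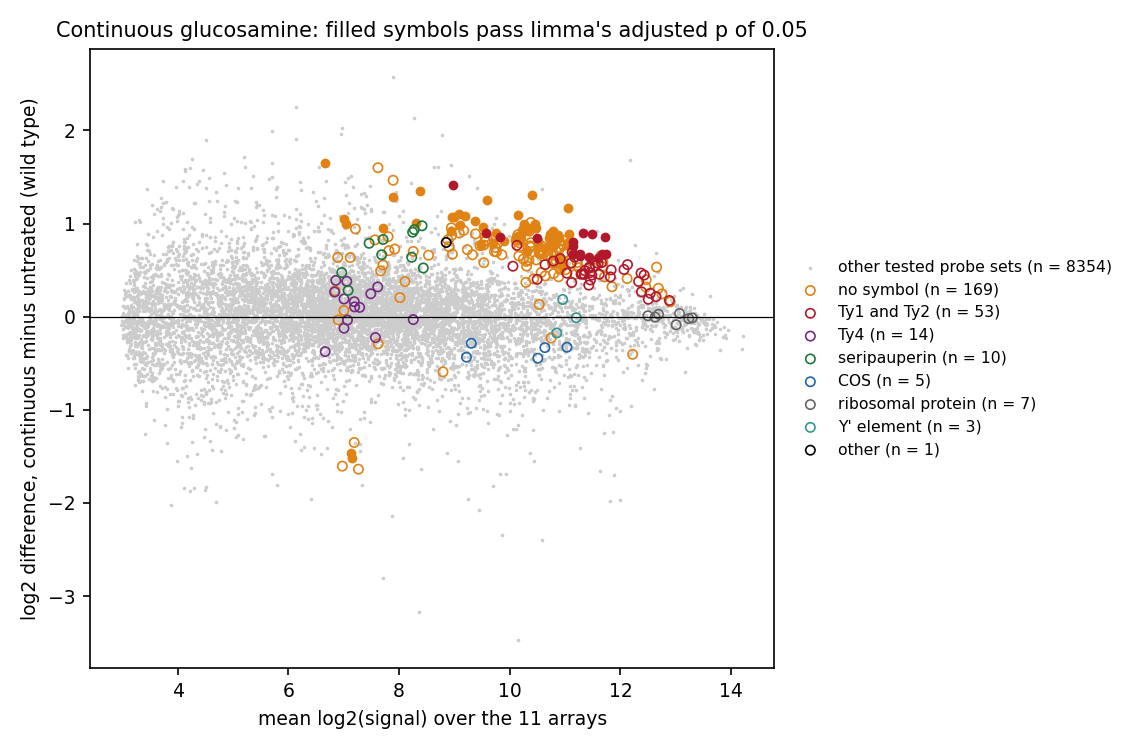
Each point is a tested probe set, with its mean log2 signal over the 11 arrays on the horizontal axis and the log2 difference of continuous minus untreated wild type on the vertical axis. Members are coloured by class, and filled symbols mark the 67 that rose and the 2 that fell at limma's adjusted p of 0.05.

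The level of a member went with how often it was called. Of 44 members with a mean signal of 100 to 300, 5 rose and 2 fell, and the median log2 difference was 0.38. Between 300 and 1000 it was 18 risen of 51, with a median of 0.82, and between 1000 and 3000 it was 39 risen of 127, with a median of 0.68. Of the 40 brightest, with signals of 3000 or more, 5 rose and the median was 0.40. The standard error of a member was 0.17 in the median, against 0.25 for the other tested probe sets, so a member could pass the test at a smaller difference than a typical probe set. Since the mean that chose the members includes the treated arrays, a member can have entered through them: 255 of the 262 averaged 100 or more in untreated wild type, and 64 of these rose.

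All 53 members for Ty1 and Ty2 had a positive log2 difference in continuous glucosamine, and 16 of them rose. Their median difference was 0.55, with a median signal of 3291, 3619 and 2946 on the 3 continuous arrays, against 2366, 2074 and 2100 on the untreated arrays. Every continuous median was above every untreated one. The median difference was 0.57 for the 28 mixed members, 0.46 for the 23 for Ty1 alone and 1.16 for the 2 for Ty2 alone.

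Within the Ty2 pair, 3669_f_at had the larger difference and read 821.8, 943.0 and 901.9 in continuous glucosamine, against 344.5, 271.8 and 394.2 untreated. Continuous cells averaged 888.9 ± 61.6 and untreated cells 336.8 ± 61.6 (SD, n = 3 arrays each), a rise of 1.41 on the log2 scale (SE 0.22, limma adjusted p = 0.0272). The other Ty2 probe set, 3503_f_at, read 1045.2, 1157.7 and 892.3 in continuous glucosamine, against 597.2, 515.2 and 540.0 untreated, a rise of 0.90 (SE 0.17, limma adjusted p = 0.0408). The groups did not overlap in either probe set. Whether Ty2 members differ from Ty1 members in their response was not tested, and they share sequence.

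The brightest Ty probe set, 3393_f_at, moved little: it read 7366, 8701 and 8560 in continuous glucosamine, against 7307, 6745 and 7746 untreated, a log2 difference of 0.17 with limma adjusted p = 0.617. Its groups overlapped. Probe sets with a single Ty1 or Ty2 gene as their symbol, which are not members, gave 12 positive differences of 12, with a median of 0.55, and none passed the test.

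Among members without a symbol, 159 of 169 had a positive difference and the median was 0.74. The largest rise was that of 3286_f_at, with 186.5, 171.6 and 185.8 on the continuous arrays, against 76.7, 43.8 and 56.8 on the untreated arrays. Continuous cells averaged 181.3 ± 8.4 and untreated cells 59.1 ± 16.6 (SD, n = 3 each), a 3.15-fold rise (log2 1.65, SE 0.22, limma adjusted p = 0.0264). This probe set lies near the limit of 100, and it passed that limit through the arrays on which it was high.

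At a middle level, 3823_f_at read 573.0, 703.9 and 524.4 in continuous glucosamine, against 226.1, 176.7 and 321.7 untreated, a 2.54-fold rise (SE 0.26 on the log2 scale, limma adjusted p = 0.0421). The probe set 3345_f_at read 350.0, 475.4 and 336.5, against 149.1, 140.2 and 185.7 untreated, a 2.43-fold rise (SE 0.22, limma adjusted p = 0.0295). In both, the lowest continuous array stood above the highest untreated one. Higher up, 3582_f_at read 1908, 2442 and 1829 in continuous glucosamine, against 1060, 687.8 and 763.1 untreated, a 2.48-fold rise (SE 0.18, limma adjusted p = 0.0265). The smallest standard error of these was that of 3494_f_at, which read 1263, 1390.5 and 1114 in continuous glucosamine, against 476.3, 560.1 and 546.3 untreated, a 2.38-fold rise (SE 0.16, limma adjusted p = 0.026). Like the others, it had no overlap between the groups. All 6 of these largest rises kept their direction under every alternative processing tried, and passed the test in 6 to 14 of 18 alternatives. Some alternatives, such as the replicate blocks or no variance trend, change only the test, so the direction could not change in them.

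Both falls were those of dim, unnamed probe sets. In 4692_f_at the signals were 59.3, 124.1 and 72.1 in continuous glucosamine, against 168.4, 281.5 and 263.6 untreated, which averages 85.2 ± 34.3 in continuous cells and 237.8 ± 60.8 in untreated cells (SD, n = 3 each). It fell by 1.52 on the log2 scale (SE 0.30, limma adjusted p = 0.0447). In 8797_f_at they were 62.3, 116.4 and 82.6 in continuous glucosamine, against 169.0, 244.0 and 304.5 untreated, and it fell by 1.46 (SE 0.28, limma adjusted p = 0.041). All 3 continuous arrays lay below the untreated ones in both.

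Looking through the values afterwards, 3 more unnamed members had log2 differences under -1: 3096_f_at, 7513_f_at and 8752_f_at. Their limma adjusted p-values were 0.066, 0.0764 and 0.075, so none of them passed. Over the 5, signals ran between 51.4 and 149.2 in continuous glucosamine, 131.3 and 208.8 at 2 h, and 126.5 and 351.4 untreated. The fks1 arrays gave 84.6 to 121 after 2 h and 116 to 162 untreated. Their log2 profiles over the 11 arrays were nearly the same, with Pearson r of 0.94 to 0.99 over the 10 pairs, given as a description because the arrays fall into groups. All 5 were picked for a fall between arrays that also enter r, so a high r follows partly from the choice. Which family they bind is not given in the files.

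**Figure D2:**
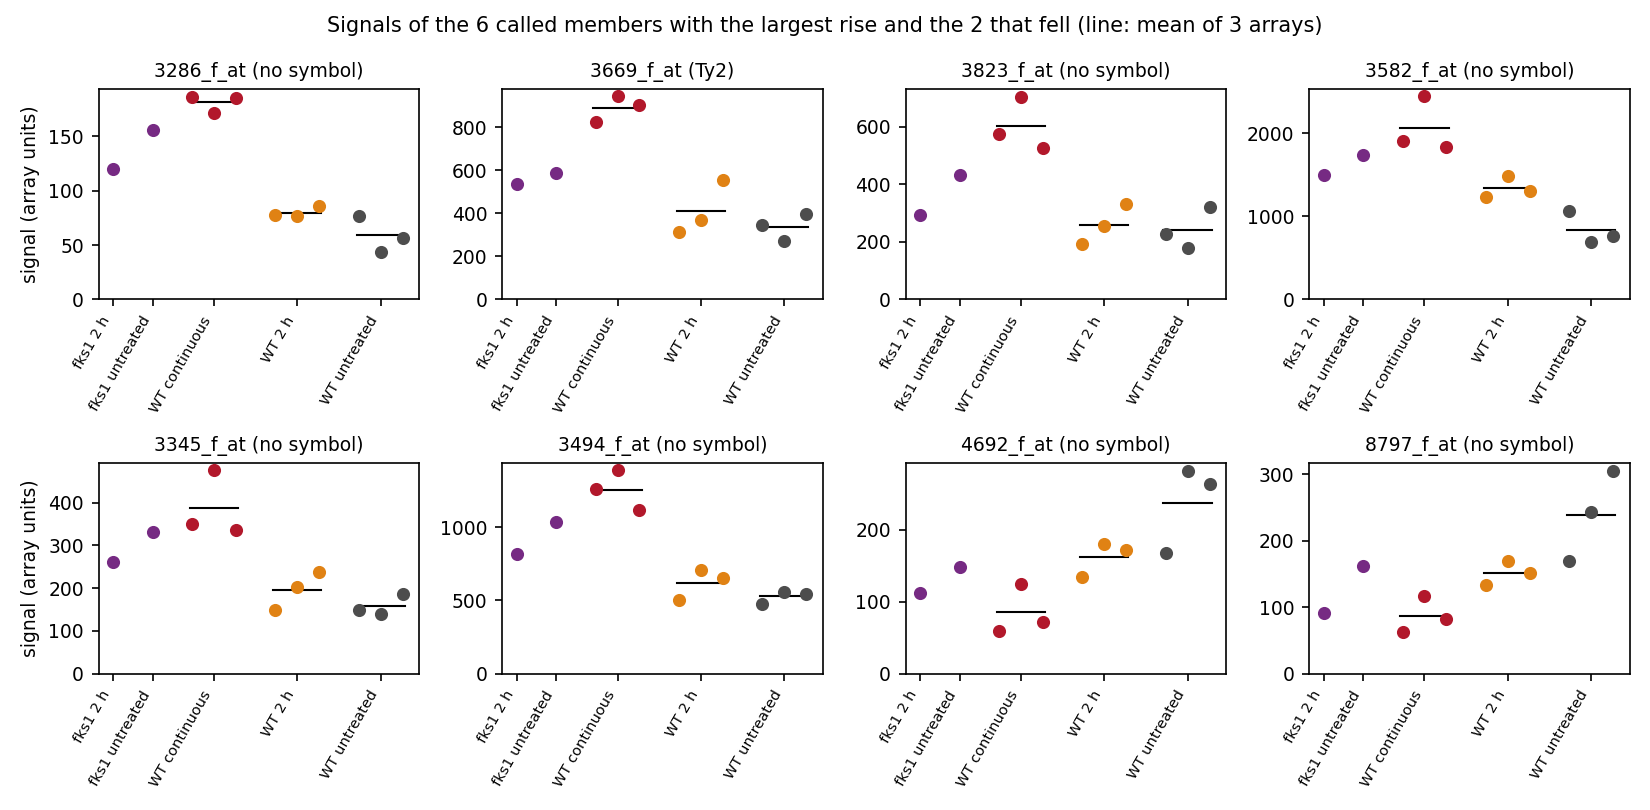
Signal of each array (points) for the 6 called members with the largest rise and the 2 that fell in continuous glucosamine, with the wild-type group means as lines. In each of the 6 that rose the 3 continuous arrays lie above the 3 untreated arrays, and in the last 2 panels they lie below.

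The log2 difference was positive in 10 of 10 seripauperins, and its median was 0.73, but none passed limma's adjusted threshold. For 8 of the 10 the continuous and untreated arrays did not overlap, against a background of 10.6% higher. An unadjusted p under 0.05 was reached by 8 too, against a background of 7.16% higher. The brightest continuous array was number 1, unlike for the Ty members, where it was number 2. As an example, 4280_f_at read 779.0, 434.2 and 481.7 in continuous glucosamine, against 270.5, 321.4 and 246.1 untreated. The COS members ran the other way, with 0 of 5 positive and a median log2 difference of -0.33. None passed, and 1 was lower at an unadjusted p under 0.05, against a background of 6.69% lower. For instance 3739_f_at read 1258, 1290 and 1428 in continuous glucosamine, against 1631, 1950 and 1453 untreated. Its groups did not overlap, though 1428 and 1453 lie close, and the background for such a separation was 9.61% lower.

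Ribosomal protein members stayed near 0, with a median log2 difference of -0.01 that becomes 0.02 under quantile normalization, a range of -0.09 to 0.03, and none of the 7 with an adjusted or unadjusted limma p under 0.05. The 3 Y' members had a median of -0.01 and no call. In these, 3183_f_at read 1736, 2485 and 1498.5 in continuous glucosamine, against 2467, 2180 and 1729 untreated. The second, 3542_f_at, read 1875, 2998 and 1955 in continuous glucosamine, against 1999, 1871 and 2003 untreated. The third, 3735_f_at, read 2067, 3382 and 2350 in continuous glucosamine, against 2334.5, 2997 and 2399 untreated. The groups overlapped in all 3, continuous array 2 was the highest array of each, and none had an unadjusted p under 0.05.

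Of the 14 Ty4 members, 9 were positive, the median was 0.13, and limma gave none an adjusted or unadjusted p under 0.05. The remaining member, 3302_f_at, read 536.4, 807.7 and 546.0 in continuous glucosamine, against 351.0, 351.8 and 365.2 untreated. Its log2 difference of 0.80 did not pass (limma adjusted p = 0.102).

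As a share of all signal on an array, the members took 9.0%, 10.0% and 8.31% in continuous glucosamine and 6.69%, 6.31% and 6.36% in untreated wild type. The 2 h arrays lay between, at 6.64%, 7.80% and 7.64%. Another measure also set the continuous arrays apart from the untreated ones: the 3' over 5' signal ratio for the TATA-binding protein transcript. This ratio of control probe sets is a sign of RNA or labelling quality. It was 2.46, 2.86 and 2.89 on the continuous arrays and 3.53, 3.40 and 3.38 on the untreated arrays. At 2 h it was 3.22, 3.32 and 3.86, a range that takes in the untreated values. On the fks1 arrays it was 2.88 after 2 h and 2.99 untreated, where the members took 7.69% and 8.38% of all signal. The same ratio for actin was 1.29, 1.37 and 1.29 on the continuous arrays and 1.30, 1.32 and 1.45 on the untreated arrays, which overlap. For the SRB4 control transcript it was 2.87, 2.91 and 2.01 on the continuous arrays and 1.86, 2.47 and 3.24 on the untreated arrays, which overlap too. The part of RNA quality in the rises was not tested.

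**Figure D3:**
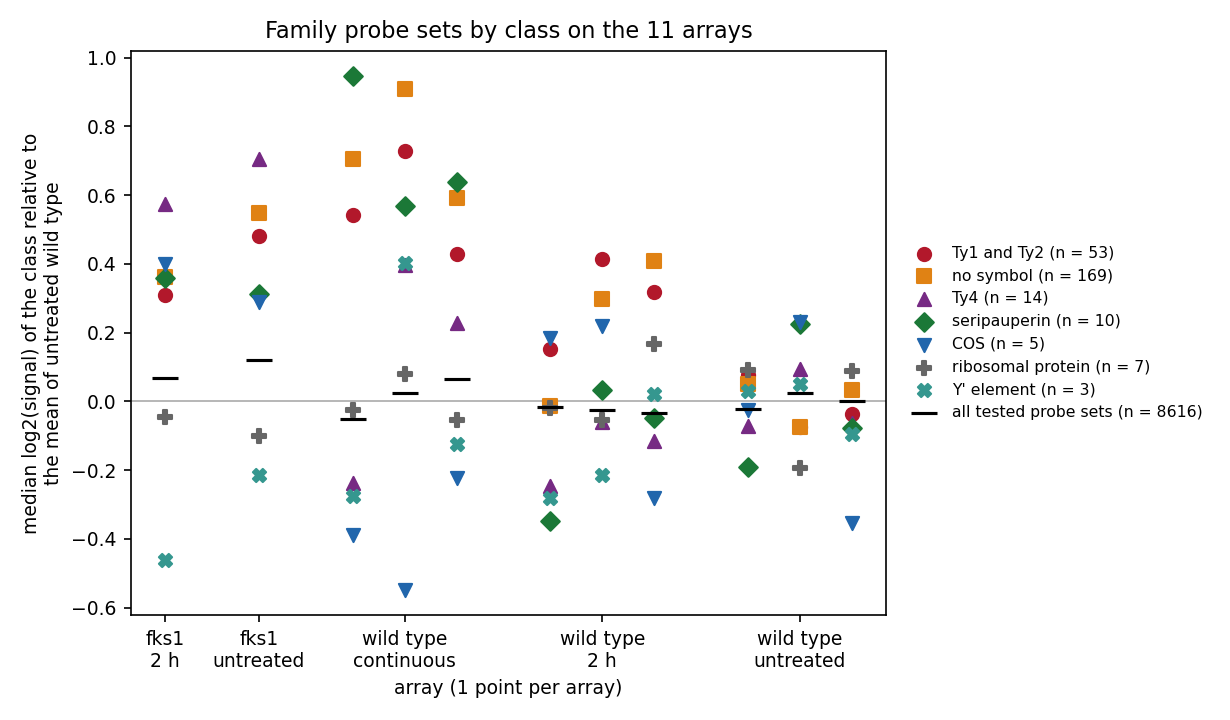
Median log2 signal of each class on each of the 11 arrays, relative to the mean of the 3 untreated wild-type arrays, with the median of all 8616 tested probe sets as black bars. The Ty1 and Ty2 medians are 0.43 to 0.73 on the continuous arrays, 0.15 to 0.41 at 2 h, and 0.31 and 0.48 on the fks1 arrays after 2 h and untreated.

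After 2 h of glucosamine in wild type no member passed the test, against a background of 0.0348%. The differences leaned upward: 212 of 262 were positive, the median was 0.22 on the log2 scale, against -0.02 over all tested probe sets, and 53 members were higher at an unadjusted p under 0.05, against none lower. The background at that unadjusted threshold was 2.47% higher and 3.59% lower. With the replicate number as a block 0 members passed as well. Of the 8616 probe sets 17 passed with the block on these 2 groups alone (0.197%) and 0 with the block over the 9 arrays.

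The first pair of arrays did not show this lean. Between arrays numbered 1 the median over the members was -0.04 with 108 of 262 positive, between those numbered 2 it was 0.38 with 221 positive, and between those numbered 3 it was 0.32 with 227 positive. Without 2 h array 1 the median over the members came to 0.34, and without any other wild-type array it lay between 0.16 and 0.24.

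All 53 Ty1 and Ty2 members had a positive log2 difference after 2 h, with a median of 0.30. Of them 22 had an unadjusted limma p under 0.05, against a background of 2.47% higher. They share arrays and in part gene lists, so they are not separate observations. Their median signal was 2455, 2942 and 2737 on the 2 h arrays, against 2366, 2074 and 2100 on the untreated arrays. Pair by pair, the median difference over these members was 0.05 for arrays numbered 1, 0.50 for arrays numbered 2 and 0.33 for arrays numbered 3. So the first pair showed little difference, and in it 32 of 53 were positive. The Ty4 and seripauperin members leaned the other way, with 1 of 14 and 1 of 10 positive and medians of -0.12 and -0.06. The seripauperin median turned to 0.02 under quantile normalization.

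Between continuous and 2 h wild-type cells no member passed the adjusted test either, against a background of 0.058%, and the smallest adjusted p of a member was 0.0916. The median log2 difference was 0.41, against 0.05 over all tested probe sets, 239 of 262 were positive, and 141 were higher and 9 lower at an unadjusted p under 0.05. That unadjusted background was 8.33% higher and 5.68% lower. The seripauperins lay apart from the 2 h arrays, with 10 of 10 positive, a median of 0.82 and 9 with no overlap, against a background of 11.6% higher. For 11249_f_at the signals were 716.3, 413.3 and 509.8 in continuous glucosamine, against 185.2, 232.5 and 216.4 at 2 h. The Ty1 and Ty2 members had 51 of 53 positive and a median of 0.29, which became 45 of 53 and 0.17 under median scaling. These 3 wild-type comparisons share arrays, so their values are not independent of each other.

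Untreated fks1 cells, with 1 array and therefore no test, also read higher than untreated wild type in most members. The median log2 difference was 0.50, against 0.12 over all tested probe sets, and 232 of 262 were positive. Scaling the arrays to a common median instead turns the value for all probe sets to -0.09 and that for the members to 0.29, and the distance between them is 0.38 under both scalings. For 212 members the fks1 array read above all 3 wild-type arrays and for 15 below, against a background of 38.5% higher and 20.1% lower. At least 2-fold from every wild-type array lay 4 members, all higher, against a background of 2.58% higher and 0.499% lower. That share of the members is smaller than the background share, but the 2 are not alike in signal. The median mean signal was 1464.5 for the members and 160 for all tested probe sets.

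Those 4 were 3286_f_at, 3474_f_at, 3554_f_at and 3617_f_at. The first read 156.2 in fks1, against the 76.7, 43.8 and 56.8 of untreated wild type given above, a log2 difference of 1.44. In 3474_f_at, which has no symbol, the values were 252.8 in fks1 and 110.1, 111.8 and 97.6 in wild type, a log2 difference of 1.25. In 3617_f_at, also without a symbol, they were 217.9 in fks1 and 78.3, 102.5 and 105.5 in wild type (log2 1.20). All 4 are dim, and the count fell to 0 with median scaling or with log2(signal + 50) and to 1 with quantile normalization. The mean signal that chose the members includes the fks1 arrays. Members that are dim in wild type, such as 3286_f_at and 3617_f_at, can thus have entered through arrays on which they were high.

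The remaining one, 3554_f_at, is a Ty4 probe set, and Ty4 was the class with the highest median in fks1 apart from the Ty2 pair. It read 355.1 in untreated fks1, against 142.1, 173.0 and 147.2 in untreated wild type (log2 1.21), and 298.6 in fks1 at 2 h, against 188.1, 200.0 and 160.9 in wild type at 2 h. All 14 Ty4 members were higher in fks1 in both treatments, with a median of 0.71 each time, and the fks1 array lay above all 3 wild-type arrays for 13 of them untreated and 14 at 2 h. The backgrounds were 38.5% and 33.6%. These medians stayed positive under median scaling, at 0.50 and 0.58. Since the 14 share 1 list of genes and 1 array per treatment, they amount to little more than 1 observation of Ty4 RNA in each treatment.

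The Ty1 and Ty2 members differed in this. Untreated, 51 of 53 were higher in fks1, with a median of 0.48, which was 0.27 with 46 of 53 positive under median scaling, and a class median signal of 2951 in fks1, against 2366, 2074 and 2100 in wild type. At 2 h, 36 of 53 were higher, with a median of 0.06 that turned to -0.07 under median scaling, and the class median signal was 2859 in fks1, against 2455, 2942 and 2737 in wild type. Only 4 of 53 lay above all 3 wild-type arrays at 2 h, against a background of 33.6% of tested probe sets. Over all members the median at 2 h was 0.10, against 0.08 over all tested probe sets, and under median scaling these were -0.03 and -0.04. None lay 2-fold from every wild-type array, against a background of 3.11%. Within the fks1 strain, 48 of 262 members were higher after 2 h of glucosamine than untreated, with a median of -0.14, against -0.05 over all tested probe sets, and this median came to -0.004 under median scaling.

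Seripauperin members were higher in fks1 in 9 of 10 untreated (median 0.31) and 8 of 10 at 2 h (median 0.46). The untreated median was 0.10 under median scaling and 0.21 under quantile normalization. COS members were higher in 4 of 5 untreated (median 0.29) and 5 of 5 at 2 h (median 0.38). Under median scaling these medians were 0.08, with 3 of 5 positive, and 0.26, with 4 of 5 positive. Ribosomal protein members were lower in 7 of 7 untreated (median -0.10), a median that was -0.31 under median scaling and 0.004 under quantile normalization. All these rest on 1 fks1 array per treatment.

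**Figure D4:**
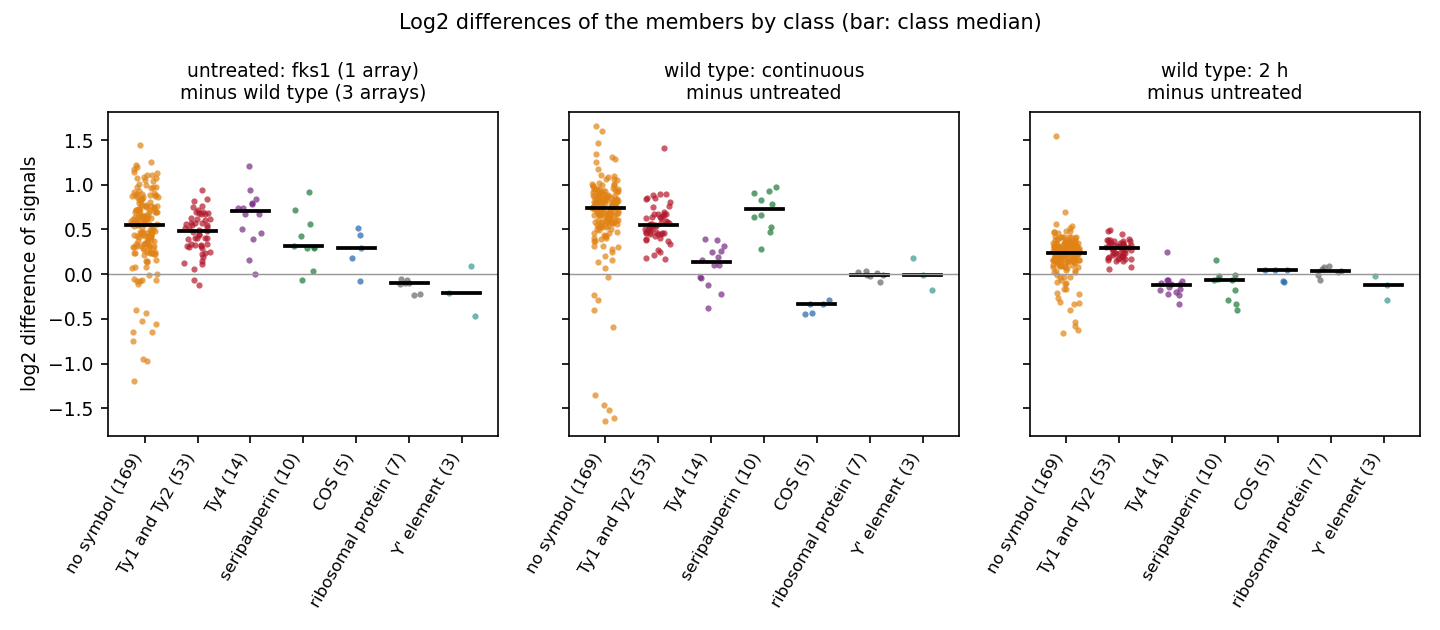
Log2 differences of every member by class, for untreated fks1 minus untreated wild type (1 array against 3), continuous minus untreated wild type, and 2 h minus untreated wild type, with class medians as bars. The Ty4 median is 0.71, 0.13 and -0.12 in the 3 panels, that of Ty1 and Ty2 is 0.48, 0.55 and 0.30, and the 5 unnamed members far below 0 in the middle panel are those described above.

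The members without a symbol largely followed the Ty1 and Ty2 members across the 11 arrays. Their log2 profile had a median Pearson r of 0.85 with the median profile of the Ty1 and Ty2 members, with 103 of 169 above 0.8, 147 above 0.5 and 158 above 0. Between pairs of members the median r was 0.81 within Ty1 and Ty2, 0.72 within Ty4, 0.72 within the seripauperins, 0.81 within COS and 0.50 within the ribosomal proteins, and 0.66 over all members. With the group means of the wild-type arrays removed, the median r was 0.60, 0.58, 0.52, 0.78 and 0.57 in the same order, and 0.41 over all members. The values before this removal describe 11 arrays that fall into 5 groups and share 1 scaling, and a like profile does not say which transcript an unnamed probe set binds.

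A few unnamed members followed a different pattern, chosen here after their values were seen. The signal of 8116_f_at was 276.9, 308.1 and 258.2 in continuous glucosamine, 366.0, 64.6 and 833.2 at 2 h, and 213.8, 3.6 and 480.5 untreated. That of 4656_f_at was 201.8, 286.2 and 284.3 in continuous glucosamine, 339.4, 13.9 and 883.9 at 2 h, and 246.4, 56.5 and 424.3 untreated. In both, wild-type arrays numbered 2 of the 2 h and untreated groups were lowest and those numbered 3 highest. The first 25S ribosomal RNA probe set had 2989, 3121 and 3542 in continuous glucosamine, 3947, 128.7 and 11615 at 2 h, and 2575, 20.4 and 3402 untreated, and so was also lowest on those arrays numbered 2. The part of ribosomal RNA in these 2 members, which are the only ones with an array at or under the background percentile, was not tested.

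Among probe sets with a single symbol outside the families, the profile most like the median of the members was that of YGR109W-B (3137_s_at, r = 0.96 over the 11 arrays), a gene of the Gag-Pol polyprotein of the retrotransposon Ty3. It read 165, 204.3 and 132.9 in continuous glucosamine, against 60.9, 46.7 and 56.2 untreated, a rise of 1.60 on the log2 scale (SE 0.27, limma adjusted p = 0.0272). In untreated fks1 it read 169. Since it was picked by likeness to a profile that is itself higher in continuous glucosamine and fks1, these values follow partly from the choice. The other 21 probe sets tested for this gene were looked up after its rise was seen: 3 rose, none fell and 20 were positive. The backgrounds were 1.06% higher and 0.383% lower, with 4515 of 8616 tested probe sets positive. These 21 carry 1 gene symbol, so they are not separate observations. The next most like were EFM5, a lysine methyltransferase of translation elongation factor, COG3 of the Golgi tethering complex, the squalene epoxidase ERG1 and the N-myristoyl transferase NMT1, with r of 0.96, 0.95, 0.92 and 0.91. None of these 4 passed the test in continuous glucosamine, with limma adjusted p-values of 0.0824, 0.127, 0.23 and 0.252.

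Genes known to act on Ty1 were also read. Ste12 and Tec1, the transcription factors of filamentous growth, bind the Ty1 promoter region, the Swi/Snf and SAGA complexes open and activate it, and the kinase Fus3 and the histone regulators of the Hir complex restrain Ty1. Of 18 activator genes (24 probe sets tested), 11 repressing or limiting genes (19 probe sets) and 6 genes of later steps of the element's life cycle (6 probe sets), none rose and none fell in the 3 wild-type comparisons by limma's adjusted p. In continuous against untreated cells, 5 of these 49 probe sets were higher and 1 lower at an unadjusted p under 0.05, against backgrounds of 7.16% and 6.69%. The median log2 differences in continuous glucosamine were 0.07, 0.15 and -0.05, with 15 of 24, 12 of 19 and 2 of 6 positive. STE12 had 206.9, 273.3 and 227.2 in continuous glucosamine, against 166.5, 267.8 and 240.8 untreated. TEC1 had 502.3, 779.7 and 556.1 in continuous glucosamine, against 568.9, 466.7 and 730.2 untreated. Both pairs of groups overlapped. FUS3, on the brightest of its 3 probe sets, read 375.6, 378.7 and 311.1 in continuous glucosamine, against 147.7, 221.8 and 171.1 untreated, a log2 difference of 0.99 that did not pass (SE 0.24, limma adjusted p = 0.075).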

How the data were processed

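Total RNA was measured on 11 arrays. The deposited values are 1 signal intensity per probe set and array, which per the labels' protocols the authors analysed and normalized in GeneChip Analysis Suite. Its version is not given in the sources used here. Signals were used as deposited, because the 2% trimmed means of the arrays differed by a ratio of 1.0002, under the limit of 1.1 for rescaling. The lowest 10% of all values were raised to a floor of 7.7 before log2 was taken. With 60 array controls left out, a probe set was tested if 3 or more wild-type arrays exceeded the floor, which gave 8616 in all and 262 of 262 members. In R 4.3.3, limma 3.58.1 was run on the 9 wild-type arrays in 1 fit with a variance trend, and p-values, two-sided, were adjusted by Benjamini-Hochberg over the 8616 probe sets with a threshold of 0.05. The fit was tested on simulated data. With 1 array per group, fks1 has no test: members at least 2-fold from each of the 3 wild-type arrays of the same treatment were counted.

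Arrays with the same number deviated together between 2 h and untreated wild type (r of 0.36, 0.57 and 0.52 over all tested probe sets), so these numbers were taken as pairs for the blocked fit. Between continuous and untreated they did not (r of -0.01, -0.14 and -0.24). The number of arrays limits the precision.

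Symbols came from the platform's gene table, which can be old, and were sorted into classes by textbook knowledge of the listed genes. Symbols of an entry with several were not given to its probe set. Named were the 10 brightest members, the 6 called members with the largest rise and fall per wild-type comparison, the members past 2-fold in fks1 (up to 5 each way), the 3 nearest each side of the signal limit, classes of 3 or fewer, and the 5 most like single-symbol probe sets. Other members were taken as examples after their values were seen. The members, lists and tests were chosen with earlier results of these data known. Probe sequences and coordinates were not used here. Alternatives tried were an offset of 50, a floor at the background percentile, median and quantile scaling, no filter, no variance trend, fits of 2 groups, replicate blocks, an 11-array fit for fks1, and each array left out.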

Additional observations from a re-analysis of the deposited data

Results flagged for a closer look

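The 2 h response of the Ty1 and Ty2 members had opposite signs in the 2 strains. In fks1 (2 h minus untreated, 1 array each) the median log2 difference of the 53 members was -0.11, and in wild type (3 arrays each) it was 0.30. The wild-type arrays numbered 1 differed by only 0.05, with 32 of 53 positive, those numbered 2 by 0.50 and those numbered 3 by 0.33. Both fks1 arrays also carry the number 1, and whether the numbers match across strains is not stated. The median over the members of the fks1 response minus the wild-type response was -0.4399, with 52 of 53 negative, and over all 262 members it was -0.38 with 221 negative, against -0.03 over all tested probe sets. In a limma fit of all 11 arrays, which assumes that the lone fks1 arrays vary like the wild-type ones, 0 of 262 members passed for this difference at an adjusted p under 0.05 (smallest 0.999), 13 had an unadjusted p under 0.05, against 201 (2.33%) of all tested probe sets, and 1 of 8616 probe sets passed. The fks1 median turned to 0.02 when arrays were scaled to a common median. The members share arrays and in part gene lists, so the counts of negative members are not counts of replicates.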

How the results depend on the processing

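The count of 69 members called in continuous against untreated wild type, of both directions, became 25 with median scaling, 6 with no filter on low values, 2 without a variance trend, 23 with the replicate block over 9 arrays and 0 with the replicate block on the 2 groups alone, and ran between 0 and 92 with each array left out. The count over all probe sets tested, 124, became 57, 16, 11, 50 and 0 in the same order of settings. It ran between 2 and 186 with each array left out. The cause was not tested. The 8 called members named for that comparison, 6 rises and 2 falls, kept their sign under the 18 alternatives run, with limma adjusted p-values up to 0.183. Several of these alternatives change only the test and leave the log2 difference, and so the sign, as it was. Other named members were not run one by one. The 4 members past 2-fold in untreated fks1 became 0 with log2(signal + 50), 0 with median scaling, 1 with quantile normalization and 0 by the limma fit of all 11 arrays, and 5 to 16 with each wild-type array left out, where fewer arrays have to be passed. The median of 0.50 over all members in untreated fks1 was 0.29 with median scaling. The count of 0 in fks1 at 2 h ran between 0 and 2, the 2 without 2 h wild-type array 2. The median of 0.10 over all members in that comparison turned to -0.03 with median scaling. Of those 8 the replicate block over 9 arrays lost 2 (3823_f_at and 3345_f_at) and the block on the 2 groups alone lost 8. In the other wild-type comparisons the count of members called was 0 with either block. The wild-type medians over the members kept their direction under the alternatives run, several of which leave these medians unchanged by design.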
